A study of Mus musculus with 11 samples.

Results

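The 10 genes described here act in the uptake, carriage or breakdown of lipid by macrophages, mark lipid-rich macrophages, or encode lysosomal proteases. They are *Apoe*, *Lpl*, *Cd36*, *Fabp5*, *Trem2*, *Gpnmb*, *Cd9*, *Lgals3*, *Ctsd* and *Ctsl*. They were found by symbol in the gene tables of the deposited counts and are 10 of 28692 genes. All 10 are protein-coding genes with 1 entry each in the tables, and they are followed here in macrophages, in other myeloid cells and in tubular cells.

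Macrophages clear dead cells and lipoproteins, and the lipid they take in reaches the lysosome, where acid hydrolases break it down. Fatty acids can then be bound by carrier proteins and burned or stored in droplets, and cholesterol can leave the cell on lipoproteins that carry apolipoprotein E. The receptor TREM2 senses lipid and apolipoproteins at the cell surface, and in lipid-rich tissues and scars macrophages with much *Trem2*, *Gpnmb*, *Cd9* and *Fabp5* are a known state.

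The mice were 10-week-old C57Bl/6 males. In unilateral ischemia/reperfusion (UIR) the pedicle of the left kidney was clamped for 30 min at 37 °C, and in unilateral ureteral obstruction (UUO) the left ureter was tied off for good. Both groups were collected at day 28, and control kidneys came from uninjured animals matched for age, strain and sex. Each library is 1 mouse, with 5 control libraries (Ctrl, N1, N2, AN1 and AN2), 3 UIR libraries (UIR, UIR1 and UIR2) and 3 UUO libraries (UUO, UUO1 and UUO2).

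Kidneys were dissociated with a cold-active protease, and each captured transcript carried a cell barcode and a random tag at its 3′ end, and distinct tags (UMIs) are counted as molecules. The libraries held 49503312 to 117043590 UMIs, and 1858 to 7442 barcodes per library were kept as cells. Barcodes lost to the limit on mitochondrial UMIs differed by group, from 57.0 to 78.8% in controls, from 23.9 to 37.2% in UIR and from 3.17 to 8.02% in UUO. Libraries shared at most 17 cell barcodes (UIR1 with UIR2, where 6.01 were expected from their sizes). The controls carry 3 kinds of name in the labels, which give no batch.

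Macrophages were clusters named by 6 markers, among them *C1qa*, *C1qb*, *C1qc*, *Adgre1* and *Fcgr1*, and all 6 were detected. Control libraries held 66 to 99 of them, against 682 to 1758 in UIR libraries and 987 to 1946 in UUO libraries (8356 in all). The summed level of these markers in counts per 1e+06 UMIs of the pooled cells (CPM) ran from 16385 to 18438 in controls, from 15344 to 18573 in UIR and from 18213 to 19909 in UUO. Macrophage pools held 178798 to 312673 UMIs in controls and 1873327 to 5124051 in injured kidneys, so low levels are less precise in controls. The markers of proximal tubule (PT) in macrophage pools summed to 283 to 718 CPM in controls, 130.3 to 249.6 in UIR libraries and 37.3 to 72.1 in UUO libraries. Those of neutrophils summed to 15.99 to 33.3, 33.6 to 49.0 and 57.2 to 126 CPM in the same order, and those of T and NK cells to 0 to 4.23, 8.60 to 16.01 and 9.37 to 22.5. Those of stroma summed to 4.23 to 12.8, 31.6 to 41.1 and 50.4 to 82.0 CPM, and those of failed-repair tubular cells (frTECs) to 72.7 to 189, 212 to 241 and 227 to 351. Their part in the results was not tested.

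A few macrophages were very large. Of the injured macrophages, 3, 10 and 7 cells of UIR, UIR1 and UIR2 and 5, 5 and 20 of UUO, UUO1 and UUO2 held over 20000 UMIs, against 0 control macrophages. The largest had 105190 UMIs in UUO1 and 95887 in UUO2, which is 2.05% and 2.06% of the UMIs of its pool. These cells weigh heavily on some of the genes below, so values without them are given beside the results they move, a comparison added after the values had been seen. Whether they were single cells was not tested.

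Of the 10 genes, 9 rose in macrophages of UIR and 8 rose in those of UUO, where 1 fell. *Gpnmb* is among those that rose, and with 0 UMIs in controls it passed the filter on low counts through injured libraries alone. *Fabp5*, with 0 to 4 UMIs in a control library, also needed the injured libraries to pass it. Over all 9749 genes tested, 5.98% passed in UIR and 8.86% in UUO in either direction (edgeR's quasi-likelihood test, adjusted p under 0.05). The 10 genes were chosen with earlier results of these data known, so their count beside these shares is a description. The median log2 fold change was 1.46 and 1.74 for the 10 genes, against 0.02 and 0.03 for all genes. Without the macrophages over 20000 UMIs, 8 rose and 1 fell in UIR, and 5 rose and 1 fell in UUO, where 5.69% and 8.19% of 9694 genes passed. The genes that kept their rise in both models were *Apoe*, *Fabp5*, *Trem2*, *Ctsd* and *Ctsl*.

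The stretches before the start sites of *Apoe*, *Trem2* and *Gpnmb* are shown because these genes rose in both models from very different starting levels. They are the 250 bases upstream of the start in RefSeq on GRCm38.p6, at 7:19699189-19699438 on the minus strand, 17:48346151-48346400 on the plus strand and 6:49036268-49036517 on the plus strand. Capitals mark matches to GAGGAA, the core bound by PU.1, and to TGANTCA, bound by AP-1.
Apoe: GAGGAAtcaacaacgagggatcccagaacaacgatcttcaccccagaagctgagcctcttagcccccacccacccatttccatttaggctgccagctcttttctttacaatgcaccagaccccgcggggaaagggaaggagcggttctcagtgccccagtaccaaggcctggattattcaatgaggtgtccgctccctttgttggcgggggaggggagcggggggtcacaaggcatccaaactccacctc
Trem2: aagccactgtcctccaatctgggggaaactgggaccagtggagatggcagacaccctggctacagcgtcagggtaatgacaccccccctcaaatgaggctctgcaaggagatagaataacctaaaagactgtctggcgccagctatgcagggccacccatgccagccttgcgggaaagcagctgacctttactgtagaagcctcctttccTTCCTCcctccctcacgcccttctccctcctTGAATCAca
Gpnmb: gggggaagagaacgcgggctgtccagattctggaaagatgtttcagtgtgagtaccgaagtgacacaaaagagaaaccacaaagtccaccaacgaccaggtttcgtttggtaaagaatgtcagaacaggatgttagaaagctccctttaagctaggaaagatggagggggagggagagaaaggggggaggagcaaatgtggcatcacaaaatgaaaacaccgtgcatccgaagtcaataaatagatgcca
The windows of 8 of the 10 genes were searched on both strands (10 windows, since *Apoe* has several starts), while *Lpl* and *Fabp5* had no entry. GAGGAA was found for *Apoe* and *Trem2* and in 23.3% of 32851 promoter windows, and TGANTCA for *Trem2* and in 6.75%. CACGTG, an E-box that includes the core of the site bound by lysosomal regulators of the TFEB family, was found for *Ctsd* and *Ctsl* and in 6.02% of windows. These are matches of letters and not sites of binding.

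*Apoe* encodes apolipoprotein E, which carries cholesterol and lipids out of macrophages and between cells (chromosome 7, 19696109 to 19699188, minus strand). In macrophages it stood at 9217, 7673, 9888, 11024 and 11558 CPM in Ctrl, N1, N2, AN1 and AN2, at 31732, 35624 and 30104 in UIR, UIR1 and UIR2, and at 32839, 35523 and 38848 in UUO, UUO1 and UUO2. Every injured library lay above every control. The means were 9872 ± 1536 CPM (SD, n = 5) in controls, 32487 ± 2836 (n = 3) in UIR and 35737 ± 3010.2 (n = 3) in UUO. The log2 fold change was 1.71 ± 0.14 (SE; adjusted p = 6.63e-08, edgeR) in UIR and 1.79 ± 0.14 (adjusted p = 1.45e-08) in UUO. UIR and UUO overlapped, and the difference between them, 0.08 ± 0.16, did not pass (adjusted p = 0.979).

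*Lpl* encodes lipoprotein lipase, which frees fatty acids from the triglycerides of lipoproteins (chromosome 8, 68880491 to 68907448, plus strand). Its levels were 255, 385, 207, 300.2 and 185 CPM in the controls, 464, 557 and 402 in UIR and 328, 213 and 299 in UUO. All 3 UIR libraries lay above the 5 controls, while UUO lay within their range. Without the macrophages over 20000 UMIs library UIR stood at 357 CPM, below N1, so that UIR overlapped with controls. *Lpl* rose in UIR by 0.82 ± 0.19 on the log2 scale (adjusted p = 0.0114, edgeR), was at 0.01 ± 0.19 in UUO (adjusted p = 0.994), and was lower in UUO than in UIR, at −0.82 ± 0.19 (adjusted p = 0.0205). The rise in UIR fell below the threshold without UIR1 (0.67, adjusted p = 0.075) and was 0.63 (adjusted p = 0.0435) without the macrophages over 20000 UMIs. The difference between the models was lost without UIR1, UUO1 or UUO2 and with the empty-droplet profile subtracted, and held without the large cells (−0.69, adjusted p = 0.0477).

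*Cd36* encodes a scavenger receptor that takes up fatty acids and oxidized lipoproteins (chromosome 5, 17781690 to 17888801, minus strand). It stood at 163, 199.8, 246, 211 and 134 CPM in controls, at 103, 155 and 133 in UIR and at 93.0, 120.2 and 87.4 in UUO. All UUO libraries lay below all controls, while UIR overlapped them. *Cd36* fell in UUO, with a log2 fold change of −0.95 ± 0.19 (adjusted p = 0.00207, edgeR). In UIR the value was −0.52 ± 0.19 (adjusted p = 0.118), and it passed without the cells over 20000 UMIs (−0.64, adjusted p = 0.0394).

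*Fabp5* encodes an intracellular carrier of fatty acids (chromosome 3, 10012548 to 10016607, plus strand). The control libraries held 3.70, 14.8, 0, 0 and 6.40 CPM, from 1, 4, 0, 0 and 2 UMIs, against 107, 278 and 143 CPM in UIR and 205, 304 and 318 in UUO. Every injured library lay above every control, and UIR and UUO overlapped. Its log2 fold change was 5.002 ± 0.51 in UIR (adjusted p = 1.08e-06, edgeR) and 5.58 ± 0.48 in UUO (adjusted p = 6.12e-08). These p-values are for a gene that would not have passed the filter on low counts by its control libraries. A single macrophage held 1238 of the 1560 *Fabp5* UMIs in UUO1, and another held 1021 of 1481 in UUO2. Without cells over 20000 UMIs the levels were 80.7, 218 and 79.4 CPM in UIR and 172, 45.5 and 81.4 in UUO, still above all controls, and the rises were 4.54 (adjusted p = 0.000425) and 4.08 (adjusted p = 0.00117).

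*Trem2* encodes the lipid-sensing receptor that signals through the adaptor TYROBP (chromosome 17, 48346401 to 48354147, plus strand). It stood at 36.99, 3.70, 33.6, 59.2 and 70.4 CPM in controls, at 334, 373 and 324 in UIR and at 358, 373 and 422 in UUO. All injured libraries lay above all controls, and UIR and UUO overlapped. *Trem2* rose by 3.04 ± 0.26 on the log2 scale in UIR (adjusted p = 9.79e-08, edgeR) and by 3.15 ± 0.26 in UUO (adjusted p = 2.71e-08). The difference between the models was 0.11 ± 0.20 (adjusted p = 0.978). Its level hardly rested on the large cells, with rises of 2.96 and 3.04 without them.

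*Gpnmb* encodes a membrane glycoprotein of lysosomes and the cell surface that is known for its rise in lipid-loaded macrophages (chromosome 6, 49036546 to 49070929, plus strand). It had no UMI in any of the 408 control macrophages, and 14.9, 53.4 and 20.01 CPM in UIR and 58.6, 78.3 and 122 in UUO. Counting error alone, with cells taken as independent, allows up to 0.735% of control macrophages to hold one. With UMIs taken as independent, a floor of 3 UMIs over the control pools is 2.36 CPM. Against it *Gpnmb* was at least 12.5-fold higher in UIR (adjusted p = 0.0114, edgeR) and at least 36.5-fold higher in UUO (adjusted p = 0.000163). These p-values are for a gene that passed the filter on low counts through injured libraries alone. Its UMIs lay in few cells, as given below, so these folds are no firm bound on expression. The bound in UIR was 7.39-fold without UIR1, and the bounds without the macrophages over 20000 UMIs were 6.33-fold and 12.6-fold. UUO was above UIR by 1.41 ± 0.32 on the log2 scale (adjusted p = 0.0179).

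Very few cells carried these *Gpnmb* counts. Its UMIs lay in 6, 28 and 11 macrophages of UIR, UIR1 and UIR2 and in 17, 13 and 21 of UUO, UUO1 and UUO2. One cell held 154 of 266 UMIs in UIR1, 359 of 401 in UUO1 and 392 of 569 in UUO2. Without macrophages over 20000 UMIs the level was 15.6, 22.4 and 6.84 CPM in UIR and 46.5, 4.08 and 38.6 in UUO. The rises then no longer passed (adjusted p = 0.185 in UIR and 0.0546 in UUO), nor did the difference between the models (0.86, adjusted p = 0.725), which was also lost without UIR2 or UUO2.

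*Cd9* encodes a tetraspanin that organizes receptors in the membrane (chromosome 6, 125460266 to 125494791, minus strand). It stood at 104, 129, 101, 76.1 and 44.8 CPM in controls, at 244, 186 and 146 in UIR and at 181, 169 and 145 in UUO, and all injured libraries lay above all controls. The log2 fold change was 1.08 ± 0.22 in UIR (adjusted p = 0.00463, edgeR) and 0.83 ± 0.22 in UUO (adjusted p = 0.022). In UUO the call was lost without the cells over 20000 UMIs (0.56, adjusted p = 0.125) and without any one of AN1, AN2, UUO and UUO1. In UIR it held at 0.85 (adjusted p = 0.0186) without the large cells.

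*Lgals3* encodes galectin 3, a lectin that binds damaged lysosomes and glycoproteins (chromosome 14, 47367751 to 47386160, plus strand). It stood at 499, 448, 330.0, 439.8 and 399.8 CPM in controls, at 528, 1042 and 709.5 in UIR and at 661, 783 and 627 in UUO. The log2 fold change was 0.84 ± 0.18 in UIR (adjusted p = 0.0058, edgeR) and 0.65 ± 0.18 in UUO (adjusted p = 0.0239), with no overlap with controls. One macrophage held 1555 of the 4010 UMIs in UUO1. Without cells over 20000 UMIs the UUO libraries stood at 550.4, 453 and 461 CPM, 2 of them within the control range, and the value was 0.14 (adjusted p = 0.704). The rise in UIR held without those cells (0.72, adjusted p = 0.0117) and was lost without UIR1 (0.52, adjusted p = 0.082), while with all cells the UUO call was lost without any one of N2, AN2 and UUO1.

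*Ctsd* and *Ctsl* encode the lysosomal proteases cathepsin D and cathepsin L (chromosome 7, 142375911 to 142388038, and chromosome 13, 64359337 to 64370890, both on the minus strand). *Ctsd* stood at 141, 99.9, 72.7, 71.9 and 144 CPM in controls, at 1013, 1352 and 881 in UIR and at 1019.7, 1145 and 1732 in UUO. It had the smallest adjusted p of the 10 genes in both models, at 3.31 ± 0.21 (log2; adjusted p = 6.58e-10, edgeR) in UIR and 3.51 ± 0.21 (adjusted p = 2.82e-10) in UUO. *Ctsl* stood at 88.8, 77.7, 78.3, 101 and 60.8 CPM in controls, at 214, 189 and 158 in UIR and at 304, 203 and 307 in UUO. Its log2 fold change was 1.20 ± 0.19 (adjusted p = 0.000314) in UIR and 1.69 ± 0.19 (adjusted p = 1.88e-06) in UUO. Neither gene overlapped with controls, and both kept their calls without the large cells, at 3.08 and 3.15 for *Ctsd* and 1.17 and 1.47 for *Ctsl*.

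**Figure D1:**
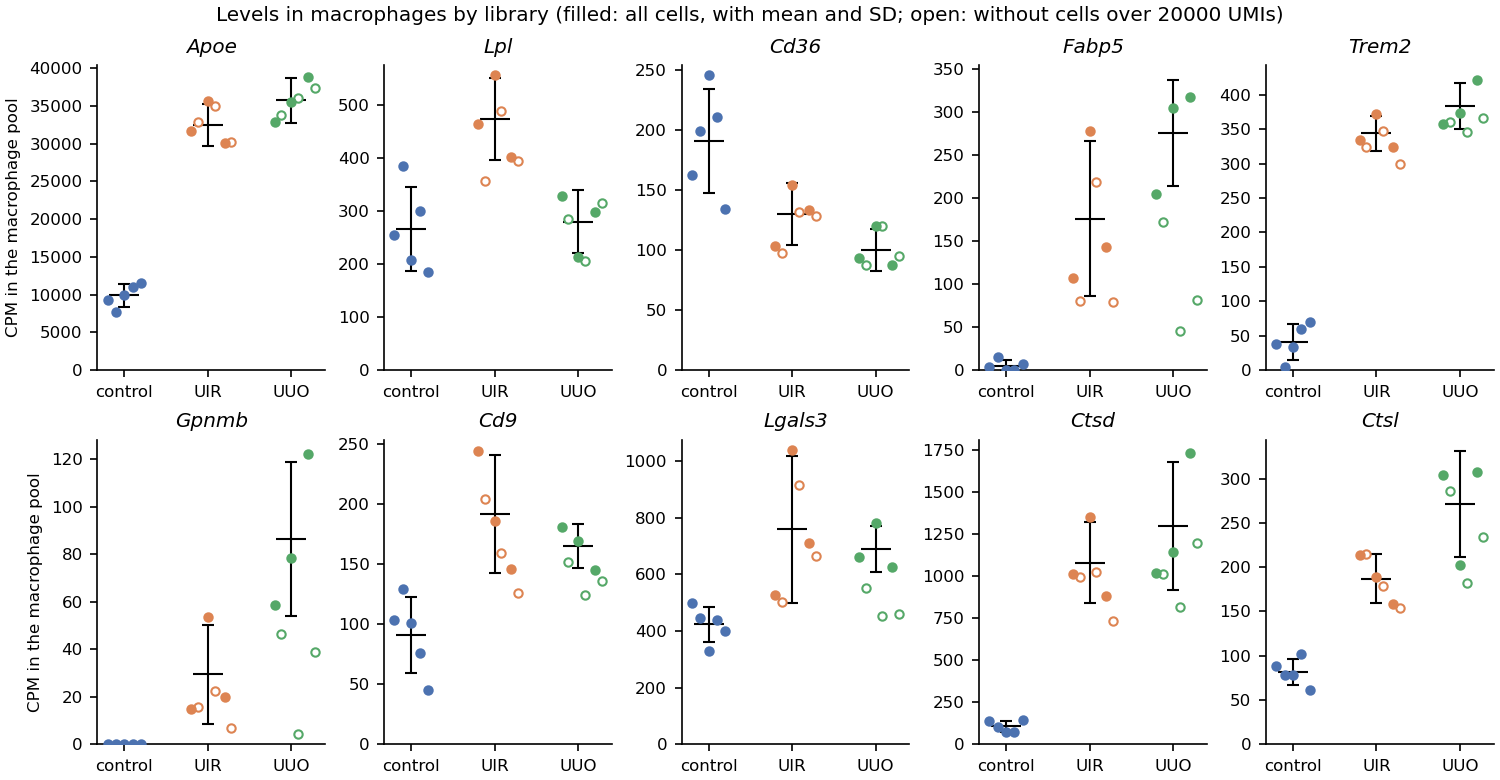
Level of each gene (CPM in the macrophage pool, linear axes from 0) in the 5 control, 3 UIR and 3 UUO libraries. Filled points are libraries with all macrophages, bars are the mean and SD, and open points are the injured libraries without macrophages over 20000 UMIs; Fabp5 in UUO1, for example, drops from 304 to 45.5 CPM.

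The UIR libraries lay wholly above the controls for 9 of the 10 genes, where 7.96% of all genes did so, and below for 0 (4.08%). The UUO libraries lay above for 8 (9.08%) and below for 1, *Cd36* (4.36%). UUO lay wholly above UIR for *Gpnmb* alone (9.87% of all genes) and below for *Lpl* alone (6.34%). In the test of UUO against UIR, 2 of the 10 genes passed, where 2.31% of all genes did, and their median was 0.10 against 0.01. Without the large cells *Lpl* was the 1 gene that passed. The UIR libraries then lay above the controls for 7 genes (7.46% of all genes did), with *Lpl* and *Cd9* overlapping, and below for *Cd36* (4.11%). The UUO libraries lay above for 6 (8.67%), with *Cd9* and *Lgals3* overlapping, and below for *Cd36* (4.21%), and UUO and UIR then overlapped for *Gpnmb*.

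Shares of macrophages with at least 1 UMI were compared after each cell had been thinned to 1000 UMIs, since the median macrophage held 2745 to 3636 UMIs in controls and 967.5 to 1357 in injured kidneys. Cells with fewer UMIs were left out, so that control libraries kept 53 to 77 macrophages, UIR libraries 339 to 992 and UUO libraries 524 to 941. *Apoe* was found in 73.6 to 80.4% of thinned control macrophages, 94.2 to 95.3% in UIR and 96.8 to 98.7% in UUO. *Trem2* was found in 0 to 6.35%, 19.5 to 22.5% and 25.7 to 26.9%, and *Ctsd* in 6.35 to 14.3%, 35.8 to 38.1% and 33.8 to 40.65%. *Cd36* was lower in the injured kidneys, with 12.7 to 19.6% in controls against 9.35 to 10.0% for UIR libraries and 6.11 to 9.56% for UUO libraries.

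In each model 7 of the 10 genes had shares that did not overlap with controls, 6 above (*Apoe*, *Fabp5*, *Trem2*, *Gpnmb*, *Ctsd* and *Ctsl*) and 1 below (*Cd36*). Over all genes 6.4% lay above and 2.02% below in UIR, and 7.7% and 2.24% in UUO. *Gpnmb* was found in 0 of 53 to 77 thinned cells of each control library and in 1 of 339 in library UIR, a share too low to be seen in so few control cells, so its separation is not read as a difference in share. The smallest p that the exact two-sided permutation test can give here is 0.0179. *Apoe*, *Fabp5*, *Trem2* and *Ctsd* reached it in both models, and *Cd36* and *Ctsl* in UUO (adjusted p = 0.0446 over 30 tests, exact permutation). *Gpnmb* reached it in both models as well, so this adjusted p rests in part on tests that are not read. *Lpl*, *Cd9* and *Lgals3* overlapped with controls in both models. Between UUO and UIR the shares of *Apoe* and *Trem2* did not overlap, both above in UUO (6.59% of all genes lay above and 5.45% below), where the smallest p is 0.1.

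The background of these shares was read from T and NK cells of the same libraries. After thinning, mean shares there were 2.85, 19.4 and 21.0% for *Apoe* in control, UIR and UUO, 0, 0.471 and 0.392% for *Trem2*, and 0.714, 3.35 and 3.03% for *Fabp5*, against 0.783, 6.83 and 6.33% of macrophages for *Fabp5*. *Gpnmb* was in 0, 0.225 and 0.106% of T and NK cells against 0, 0.785 and 1.42% of macrophages. *Cd36* was in 0, 0.53 and 0.106% of T and NK cells against 16.5, 9.75 and 7.46% of macrophages, and *Ctsl* in 1.82, 3.13 and 2.71% against 7.85, 14.2 and 18.6%. *Ctsd* was in 26.2 to 31.1% of T and NK cells on average, at 290 to 392 CPM, so these cells cannot serve as its background. *Fabp5* stood in T and NK cells at 21.7 to 62.2 CPM in N1, N2, AN1 and AN2, from 2 to 10 UMIs, and at 0 in Ctrl. Empty droplets of these N and AN libraries held 3.52 to 5.19 CPM, so T and NK cells lay above free RNA there. Without thinning the mean shares of macrophages were 75.8, 95.3 and 97.1% for *Apoe*, 8.97, 32.2 and 36.3% for *Trem2*, 1.33, 11.1 and 11.6% for *Fabp5* and 0, 1.08 and 1.40% for *Gpnmb*. The median T or NK cell held 3030.0 to 5475 UMIs, more than the median injured macrophage. In 11.7 to 22.6% of thinned control macrophages at least 3 of the 10 genes were found, against 40.1 to 40.8% in UIR and 40.4 to 46.8% in UUO. These values were not compared with other genes or with what the single shares alone would give. They are thus not read as joint expression.

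Within the macrophages the 10 genes did not lie in the same clusters. The 10 genes and the naming markers had been held out of the genes used for clustering, and levels by cluster are a description. Cluster M3 (896 cells, of which 9 were control, 306 UIR and 581 UUO) held the highest levels of *Trem2* (754 CPM), *Gpnmb* (324), *Fabp5* (1049), *Ctsd* (3993), *Lgals3* (2247), *Ctsl* (372) and *Cd9* (464) of any macrophage cluster. Among clusters with at least 20 cells in a library, M3 also ranked first in 6 of 6 injured libraries for *Trem2*, *Gpnmb*, *Fabp5*, *Ctsd* and *Ctsl* and in 5 for *Lgals3* and *Cd9*, while M1 did for *Apoe* in 6 of 6. It made up 7.28 to 15.1% of the macrophages of an injured library and held 76.0 to 98.8% of their *Gpnmb* UMIs. Of its cells 25 held over 20000 UMIs, and without these its levels were 691 CPM for *Trem2*, 106 for *Gpnmb*, 387 for *Fabp5*, 3002 for *Ctsd* and 379.9 for *Cd9*, again the highest, while *Lgals3* (1686) was then higher in M14 and *Ctsl* (269) in M1. Its share of the *Gpnmb* UMIs was then 68.3 to 89.9%, of 20 to 159 UMIs in a library. Cluster M1 (1722 cells, of which 7 were control) held the most *Apoe*, 49642 CPM, with *Trem2* at 416 CPM, but *Gpnmb* at 9.18 and *Lgals3* at 195 CPM. Cluster M14 (232 cells, of which 1 was control) stood apart by *Lpl* at 2398 CPM and *Cd36* at 433 CPM, with *Apoe* at 2973 CPM, and carried 32.5 to 49.0% of the macrophage *Lpl* UMIs of the UIR libraries.

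Of the 408 control macrophages, 257 were in M2 and 112 in M0, and these 2 clusters held 55.04% of the macrophages of UIR and 19.6% of those of UUO. Cells of M2 alone were compared (31 to 69 per control library, 57 to 304 per injured library), a comparison added after the values had been seen. *Apoe* rose there by 1.36 in UIR and 1.46 in UUO on the log2 scale, *Trem2* by 2.12 and 2.52, *Ctsd* by 1.44 and 1.68 and *Ctsl* by 1.01 and 1.11, each past the threshold (edgeR; largest adjusted p = 0.007). *Cd36* fell by 0.69 and 1.07 in M2 alone. *Lpl*, *Cd9* and *Lgals3* did not pass in M2 in either model, with values of 0.44 and −0.13, 0.51 and 0.32, and 0.05 and −0.35, and *Fabp5* and *Gpnmb* had too few counts there to be tested. M2 thus gave 5 of 8 tested members in each model, where 5.39% and 7.4% of 3918 genes passed, and M0 alone, a cluster whose median cell held 716 UMIs, gave 2 of 4, where 3.27% and 5.81% of 551 genes did (*Apoe* at 1.79 and 1.41, *Ctsd* at 2.13 and 1.91).

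**Figure D2:**
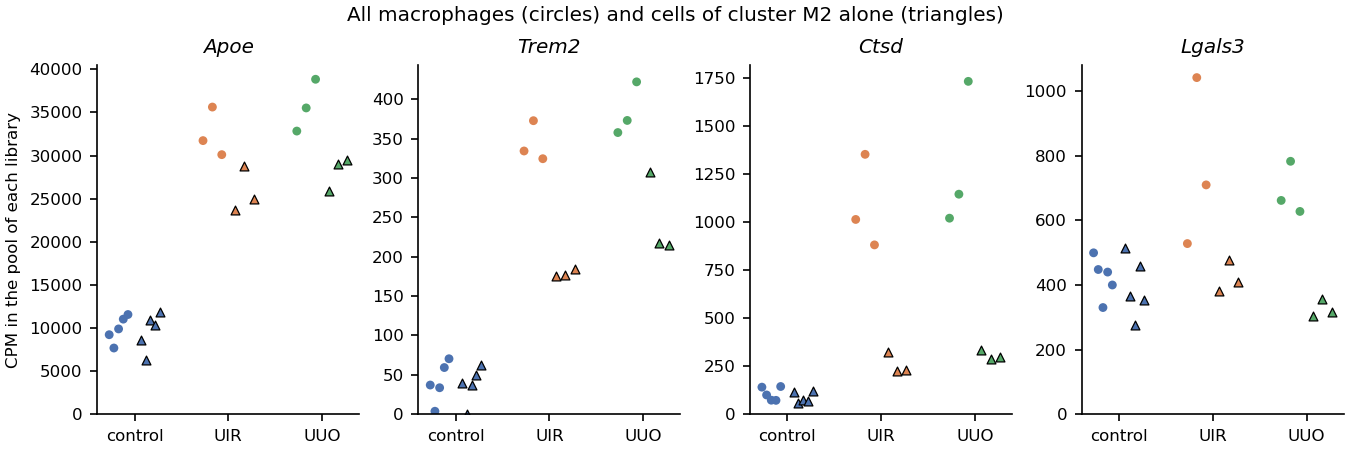
Level of Apoe, Trem2, Ctsd and Lgals3 (CPM, linear axes from 0) in all macrophages of each library (circles) and in the cells of cluster M2 alone (triangles), by group. Apoe, Trem2 and Ctsd of injured libraries stay above the controls in M2, while Lgals3 overlaps with them.

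Genes around these 10 in lipid handling were counted from 10 lists that hold none of the 10, also chosen with earlier results of these data known. Over all genes tested in macrophages 3.43% rose and 2.55% fell in UIR, and 4.36% and 4.5% in UUO. Between the models 0.338% were higher and 1.97% lower in UUO than in UIR. Of the lysosomal hydrolases and membrane proteins, 12 of 32 tested genes rose and 1 fell in UIR, and 11 rose and 1 fell in UUO. Among them were the protease *Ctsb*, at 1.22 ± 0.13 and 1.42 ± 0.13, the progranulin gene *Grn*, at 1.27 ± 0.14 and 1.49 ± 0.14, the protease inhibitor *Cstb*, at 1.46 ± 0.16 and 1.51 ± 0.16, and the tetraspanin *Cd63*, at 1.39 ± 0.17 and 1.32 ± 0.17 (log2 ± SE). Their list had a median of 0.37 and 0.44. Without the large cells 10 and 9 rose.

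Of 11 genes of TREM2 signalling partners and other TREM genes, 3 rose in each model, all of the Ms4a family of membrane proteins. They were *Ms4a6d* (1.74 ± 0.20 and 1.97 ± 0.20), *Ms4a7* (1.04 ± 0.14 and 1.15 ± 0.14) and *Ms4a6c* (0.76 ± 0.16 and 0.98 ± 0.16). The list's median was 0.36 in UIR and 0.41 in UUO. Of 9 scavenger and lipoprotein receptors, 3 rose in UIR and 4 in UUO, with *Lrp1* at 1.04 ± 0.20 and 0.89 ± 0.20, *Msr1* at 0.82 ± 0.23 and 0.96 ± 0.23 and *Stab1* at 0.76 ± 0.14 and 1.21 ± 0.14, and with *Scarb2* at 0.68 ± 0.18 in UUO. The medians were 0.29 and 0.68.

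For cholesterol leaving the cell, 2 of 12 genes rose in UIR and 4 in UUO, 2 of them without the large cells. The cholesterol exporter *Abca1* was at 1.25 ± 0.21 in UIR and 1.62 ± 0.20 in UUO, and the lysosomal cholesterol carrier *Npc2* at 0.44 ± 0.13 and 0.47 ± 0.13. *Pltp*, which moves phospholipid between lipoproteins, was at 2.14 ± 0.26 and 2.07 ± 0.26 and was the 1 of 5 lipoprotein genes that rose in each model, while *Apobec1* fell in UIR (−0.55 ± 0.16) and was lost without the large cells. The median of these 5 was −0.19 in UIR and 0.20 in UUO. Of 17 genes of fatty acid binding and droplets, 1 passed against controls, *Acsl3*, which fell in UUO and whose call was lost without the large cells.

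Genes of cholesterol synthesis differed between the models, with 6 of 14 lower in UUO than in UIR, where 1.97% of all genes were. Their median was −0.76 against 0.01 for all genes. The set was not tested, and levels within a macrophage cluster were not compared. *Idi1* was at −1.14 ± 0.22 (adjusted p = 0.00269, edgeR), *Fdps* at −0.80 ± 0.18, *Msmo1* at −0.78 ± 0.18 and *Cyp51* at −0.77 ± 0.19. Without the large cells 6 were also lower, with *Hmgcs1* lost and *Sc5d* gained. Against controls 1 gene of this list rose in UIR, *Msmo1* (0.96 ± 0.29), and 1 fell in UUO. *Apobec1*, *Acsl3*, *Hmgcs1*, *Sc5d* and, below, *Cd81* were named after their values had been seen.

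Of 13 scar-associated macrophage genes, 8 rose in each model, with *Spp1*, which encodes osteopontin, at 3.27 ± 0.28 and 3.84 ± 0.28, and *Mmp14* at 1.92 ± 0.31 and 2.21 ± 0.30. In UIR 1 and in UUO 3 of them fell. Without the large cells 7 of 12 rose in each, and 2 and 3 fell. Of 12 galectins and other tetraspanins, 4 rose in UIR and 6 in UUO, among them *Lgals1* (1.66 ± 0.18 and 1.55 ± 0.18) and *Tspan4* (1.26 ± 0.32 and 1.29 ± 0.32), while *Cd81* was the 1 that fell in each. Resident macrophage genes, a list that also holds *Cd81*, were mixed, with 3 of 11 higher and 2 lower in UIR and 5 higher and 2 lower in UUO, and 4 were higher in UUO than in UIR, with and without the large cells. The mannose receptor gene *Mrc1* was at 1.302 ± 0.18 and 1.49 ± 0.18, and *Gas6*, a ligand that bridges dead cells to macrophages, at 0.74 ± 0.21 and 1.40 ± 0.20, with a further 0.66 ± 0.16 in UUO over UIR.

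In other myeloid cells only UUO and UIR could be compared, since controls held too few of these cells. In conventional dendritic cells of type 1 (cDC1) and type 2 (cDC2) and in migratory dendritic cells, 0 of 6, 7 and 6 tested genes passed (edgeR), where 0.34%, 0.321% and 0.0276% of all genes did. At an unadjusted p under 0.05 there were 2, *Cd36* in cDC1 (−0.68 ± 0.15, adjusted p = 0.107) and *Lpl* in cDC2 (−1.19 ± 0.35, adjusted p = 0.454). *Cd36* in cDC1 was at 200.2, 202 and 204 CPM in UIR and at 123, 139.7 and 136 in UUO, with no overlap.

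Some members were lower in macrophages than in other myeloid cells. In migratory dendritic cells *Fabp5* stood at 1536 to 2795 CPM in UIR and at 4066 and 1788 in UUO and UUO1, and macrophages minus migratory dendritic cells came to −3.96 ± 0.28 on the log2 scale (adjusted p = 2.91e-22, edgeR with the library as a block; −4.90 ± 0.26 without the large macrophages). Monocytes, which had enough cells in UUO alone, held *Apoe* at 2761 to 3474 CPM, *Lgals3* at 1839 to 2001 and *Trem2* at 51.5 to 121. *Lgals3* was lower in macrophages than in monocytes (−1.15 ± 0.35, adjusted p = 0.00785, edgeR). Neutrophils of UUO held *Gpnmb* at 320.3, 301 and 228 CPM, *Cd9* at 1455 to 2264 and *Ctsd* at 1684 to 1949.8, and *Gpnmb* was lower in macrophages than in neutrophils (−1.45 ± 0.33, adjusted p = 0.000233, edgeR; −3.13 ± 0.44 without the large macrophages). These *Gpnmb* UMIs lay in 1 neutrophil cluster, M18 (86 cells), and *Gpnmb* was at 0 in the other, M11 (285 cells).

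Over all pools, 8 of the 10 genes were higher in macrophages than in the mean of the 6 tubular classes, where 33.4% of 12416 genes were. The differences were largest for *Trem2* (8.20 ± 0.12 on the log2 scale) and *Apoe* (7.497 ± 0.19), and *Gpnmb* (6.51 ± 0.26), *Cd36* (4.85 ± 0.19), *Fabp5* (4.599 ± 0.20), *Lpl* (3.37 ± 0.23), *Lgals3* (1.34 ± 0.17) and *Ctsd* (0.89 ± 0.16) followed. Without the large macrophages *Gpnmb* was at 5.14 ± 0.36 and *Fabp5* at 3.73 ± 0.19. *Ctsl* was lower in macrophages (−1.09 ± 0.17) and so was *Cd9* (−0.81 ± 0.17). Against PT alone *Lpl* (0.20 ± 0.30) and *Cd36* (−0.25 ± 0.19) did not pass. Nor did *Lgals3* against the loop of Henle (0.07 ± 0.23) or principal cells (−0.25 ± 0.23), or *Ctsd* against principal cells (0.28 ± 0.21). The fit took control and injured libraries together. In controls alone *Ctsd* stood at 71.9 to 144 CPM in macrophages and 115 to 133 in PT. *Fabp5* stood there at 0 to 14.8 and 6.25 to 11.4 CPM, and *Gpnmb* at 0 in macrophages. Against the mean of the other myeloid classes 8 were higher, where 30.1% of genes were, with *Cd9* and *Lgals3* not past the threshold. Without the large macrophages *Fabp5* no longer was (−0.25 ± 0.23, adjusted p = 0.375), *Gpnmb* moved from 4.42 to 2.87, and *Cd9* was lower (−0.51 ± 0.20, adjusted p = 0.0283).

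The cells that held each gene's UMIs differed between the groups, and PT cells numbered 52, 59 and 96 in the UUO libraries. Macrophages held on average 88.4% of the *Trem2* UMIs in controls, 93.7% in UIR and 91.6% in UUO, and 65.7, 89.3 and 91.3% of those of *Apoe*. PT cells held 90.0% of *Cd36* UMIs and 77.7% of *Lpl* UMIs in controls, against 8.43 and 3.05% in UUO. For *Ctsl* macrophages held 0.413, 3.67 and 6.53%, and for *Cd9* 1.60, 3.85 and 4.67%, so these genes lay mostly in tubular and other cells in every group. These shares follow the number of cells captured in each class and were not tested.

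**Figure D3:**
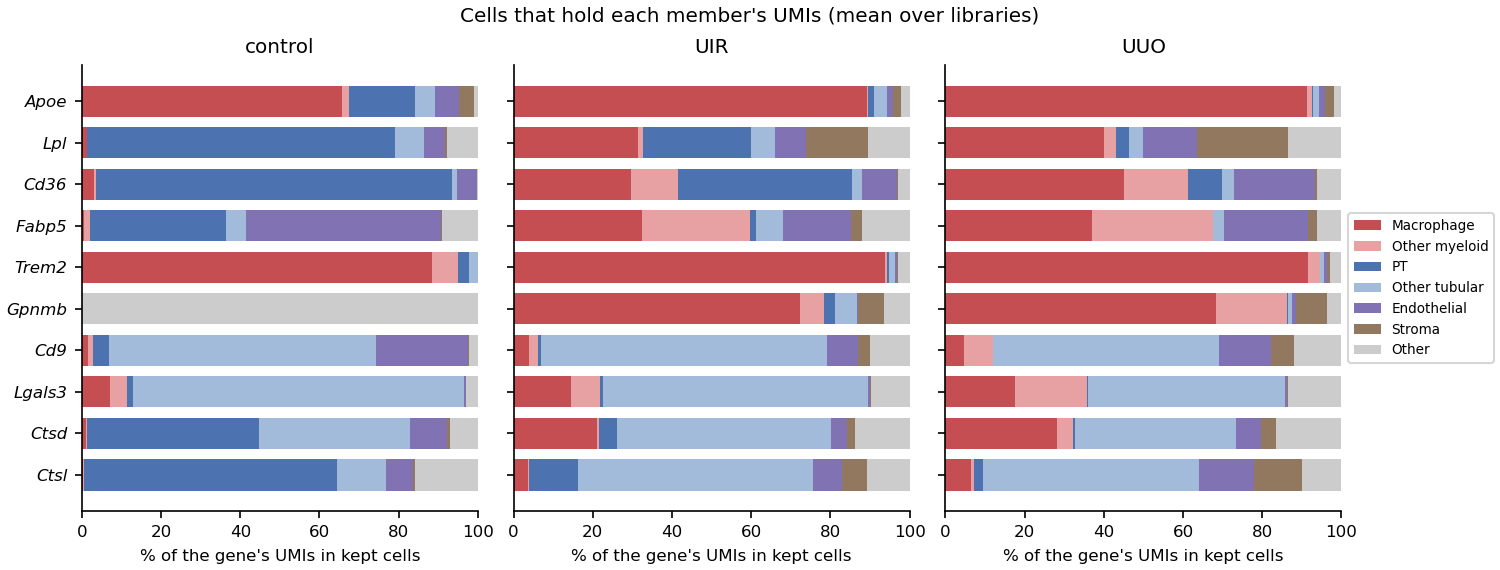
Share of each gene's UMIs in kept cells (%, mean over libraries) that lay in macrophages, other myeloid cells, PT, other tubular classes, endothelium, stroma and other cells, for control, UIR and UUO. Macrophages hold most UMIs of Apoe and Trem2 in every group, and the control bar of Gpnmb rests on 2 UMIs in T and NK cells of library Ctrl.

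In tubular cells the 10 genes gave 27 calls over 6 classes in UIR and 32 in UUO, but 4 between UUO and UIR. The share of all genes called, in UIR and then UUO, was 12.4% and 10.3% in PT, 31% and 35.7% in the loop of Henle, 9.97% and 6.45% in the distal tubule, 19.1% and 37.2% in principal cells, 9.82% and 21.5% in intercalated cells and 8.98% and 14.2% in frTECs. Between UUO and UIR it was 0.0764%, 1.99%, 0.275%, 8.32%, 1.28% and 0% in the same order. Of the 10 genes 9 could be tested in PT, 8 in the loop of Henle and in frTECs, 7 in intercalated cells and 6 in the distal tubule and in principal cells. *Gpnmb* could be tested in none of them. PT pools of UUO held 52 to 96 cells, the distal tubule of library UUO (4 cells) was left out, and frTECs of N1 and AN1 (16 and 15 cells) were left out. Cluster T4, with 1 control, 323 UIR and 207 UUO cells, was led by *Slc12a3*. Its distal tubule and principal scores were close, so it was left without a name and lies outside the distal tubule and principal pools.

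*Lpl* fell in the tubule, in 4 of 6 classes in UIR and in 6 of 6 in UUO. In the loop of Henle it went from 323 to 525 CPM in controls to 18.6 to 29.97 in UIR and 11.05 to 23.9 in UUO, with log2 fold changes of −4.21 ± 0.22 and −4.95 ± 0.24 (adjusted p = 5.84e-13 and 1.28e-13, edgeR). In PT it went from 351 to 706 CPM to 254 to 341 and 117 to 212, at −0.79 ± 0.20 and −1.83 ± 0.23. Principal cells went from 16.4 to 86.8 CPM to 8.69 to 23.9 and 1.95 to 2.69, and here UUO was lower than UIR, at −2.78 ± 0.68 (adjusted p = 0.0121), a call lost without any one of UIR1, UUO and UUO1. The fall in PT of UIR was lost without UIR2. Empty droplets held *Lpl* at 142 to 499 CPM in control libraries, 78.5 to 169.98 in those of UIR and 100.4 to 150.3 in those of UUO, and *Cd36* at 31.9 to 259, 18.98 to 58.3 and 32.4 to 44.5. With that profile subtracted the *Lpl* call in principal cells was lost in UIR (adjusted p = 0.495) and between UUO and UIR (adjusted p = 0.0822), and so was that in frTECs of UUO (adjusted p = 0.0759), while its other tubular calls and those of *Cd36* held. It also fell in the distal tubule in both models and in intercalated cells and frTECs in UUO. Cluster T2 held 232 of the 540 distal tubule cells of controls, 280 of 348 in UIR and 39 of 50 in UUO, and levels within it were not compared. *Cd36* fell in the loop of Henle, from 25.7 to 40.4 CPM to 1.21 to 2.21 and 1.59 to 1.67, at −4.56 ± 0.31 and −4.61 ± 0.34, and did not pass in PT (−0.31 ± 0.20 and −0.54 ± 0.25), where most of its control UMIs lay.

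Loop of Henle cells of control and injured kidneys lay in different clusters, and cluster T8 held 275 control, 99 UIR and 8 UUO cells, too few in UUO for a value. The other 2 clusters, T0 and T1, held 2 control cells in all. Within T8 the UIR value was −0.44 for *Lpl* and −2.07 for *Cd36*, neither past the threshold, and UIR2 (14 cells) was left out.

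*Cd9*, *Lgals3* and the cathepsins rose in tubular classes as well. In PT *Cd9* went from 5.57 to 10.1 CPM to 25.7 to 37.1 in UIR and 36.0 to 78.3 in UUO, at 2.11 ± 0.20 and 2.897 ± 0.28, and *Lgals3* from 1.27 to 4.602 CPM to 18.5 to 27.2 and 7.39 to 46.0, at 3.05 ± 0.27 and 3.08 ± 0.46. Free RNA of both was also higher in the injured libraries, with *Cd9* in empty droplets at 22.97 to 92.1, 101 to 228 and 185 to 281 CPM and *Lgals3* at 21.9 to 79.9, 192 to 284 and 387 to 416. With the empty-droplet profile subtracted *Cd9* still passed in PT (2.15 and 3.37), and *Lgals3* passed in UUO (4.48) and not in UIR (2.70, adjusted p = 0.0826). In the loop of Henle *Cd9* rose by 1.48 ± 0.28 on the log2 scale in both models and *Lgals3* by 1.64 ± 0.20 and 1.67 ± 0.20. Within cluster T8 the UIR value was 0.06 for *Cd9*, which did not pass, and 0.89 for *Lgals3*, which did (adjusted p = 0.0271, edgeR). In frTECs *Cd9*, *Lgals3*, *Ctsd* and *Ctsl* all rose in both models, at 1.20 to 1.64 in UIR and 1.56 to 1.80 in UUO. In intercalated cells *Cd9* rose (0.57 ± 0.16 and 1.0002 ± 0.16), where the UIR call was lost without any one of Ctrl, N1, UIR and UIR2 (0.49 to 0.60) and with the empty-droplet profile subtracted (0.56, adjusted p = 0.0543), and *Lgals3*, *Ctsd* and *Ctsl* did not pass in either model. Clusters T7 and T26 held 0 of 253 control intercalated cells, 52.0% of those of UIR and 88.5% of those of UUO. Within cluster T9, in levels added after the values had been seen, *Cd9* stood at 401 to 538 CPM in controls and 601 to 722 in UIR, with no overlap, and UUO had too few cells. The frTECs were split as well, since clusters T15 and T17 held 71.0% of them in controls, 19.3% in UIR and 14.9% in UUO. Leading genes were *Hmmr*, *Cdc20* and *Cdk1* in T15 and *Fst*, *Slc4a11* and *Aqp1* in T17. Cluster T3, with 13 control, 395 UIR and 136 UUO cells, had *Havcr1* and *Vcam1* among its own. The frTEC values thus set different kinds of clusters side by side.

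*Ctsl* differed between the models in the loop of Henle and in principal cells. In principal cells it went from 112 to 139 CPM (control) to 276 to 374 (UIR) and 559 to 703 (UUO), with 0.96 ± 0.15 between UUO and UIR (adjusted p = 0.000225, edgeR). In the loop of Henle it went from 108 to 166 CPM to 509.7 to 688 and 931 to 1245, with 0.79 ± 0.17 between the models (adjusted p = 0.00789), which was lost without UIR2. *Ctsd* of principal cells went from 370.3 to 460.2 CPM to 616 to 816 and 896 to 1424, with 0.58 ± 0.15 between the models (adjusted p = 0.0216), which was lost without any one of UIR, UIR2 and UUO1. None of the 3 groups overlapped in these cases.

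The clusters of these cells differed between the groups. Ranges of the models overlapped for both cathepsins in cluster T6 and for *Ctsl* in T0 and T1, at times narrowly. Differences within a cluster were not tested. Cluster T6 held 3 of 388 control principal cells, 170 of 420 of UIR and 277 of 296 of UUO. Within T6 *Ctsl* stood at 426 to 772 CPM in UIR and 584 to 739 in UUO, and *Ctsd* at 668 to 938 and 905 to 1326. Within cluster T12 *Ctsl* stood at 106 to 136 CPM in controls and 121 to 180 in UIR, which also overlapped. *Lpl* in T6 stood at 5.04 to 14.4 CPM in UIR and 1.95 to 2.003 in UUO, with no overlap, from 2 to 9 UMIs in a library. In the loop of Henle, cluster T1 held 23.1% of UIR cells and 56.6% of UUO cells, and *Ctsl* stood there at 890 to 1371 CPM and 1118 to 1675, against 418 to 546 and 541 to 701 in cluster T0.

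**Figure D4:**
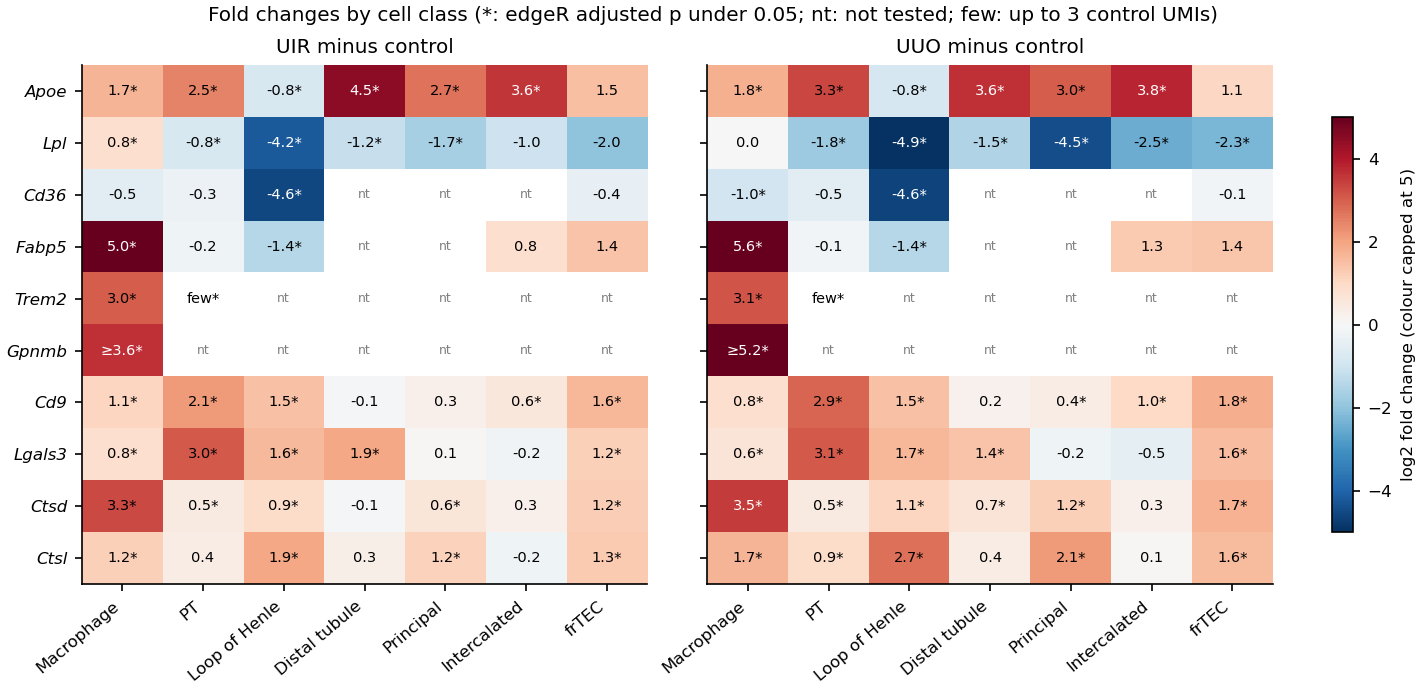
Log2 fold change of each gene (rows) in macrophages and the 6 tubular classes (columns), for UIR and UUO against control, with colour capped at 5 in either direction. An asterisk marks an adjusted p under 0.05 (edgeR), nt a gene that was not tested, and few a class with up to 3 control UMIs. The sign ≥ marks a lower bound for Gpnmb with UMIs taken as independent. Lpl is below 0 in every tubular class and Apoe above 0 in all but the loop of Henle.

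*Apoe* rose in PT, the distal tubule, principal and intercalated cells and fell in the loop of Henle. In PT it went from 63.2, 76.5, 66.0, 84.1 and 66.1 CPM to 252, 508 and 436 in UIR and 419, 923 and 958 in UUO, at 2.49 ± 0.21 and 3.34 ± 0.22. Principal cells went from 5.81 to 17.3 CPM to 75.8 to 133 and 115 to 143, at 2.71 ± 0.23 and 3.01 ± 0.22, and intercalated cells from 4.17 to 11.97 CPM to 86.1 to 135 and 124 to 164, at 3.58 ± 0.27 and 3.83 ± 0.27. In the loop of Henle the values were −0.82 ± 0.22 and −0.83 ± 0.22, but within cluster T8 the UIR value was 1.26 (adjusted p = 0.0048).

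Free RNA of macrophages was also higher in the injured libraries. Empty droplets held *Apoe* at 69.6 to 157 CPM in control libraries, 1816 to 2324 in those of UIR and 4518 to 6173 in those of UUO, and *C1qa* at 11.8 to 22.6, 262 to 337 and 706 to 855. T and NK cells held *Apoe* at 14.4 to 45.6 CPM, 148 to 303 and 231 to 239.8, which in the injured groups is above the levels of principal and intercalated cells. With macrophage RNA subtracted by the level of *C1qa*, *C1qb* and *C1qc*, *Apoe* stayed higher in PT (1.95 and 3.08), principal (1.92 and 1.97) and intercalated cells (2.62 and 2.57), while in the distal tubule it passed in UIR (3.54) and not in UUO (0.75). With the empty-droplet profile subtracted it stayed past the threshold in PT (1.82 and 3.09) and no longer in principal (2.02 and 2.06) or intercalated cells (1.60 and 1.55), while in the distal tubule it passed in UIR (3.23) and turned to −1.99 in UUO (adjusted p = 0.736). *Trem2* also passed in PT, but from 2 UMIs in all control PT cells to 0 to 4.32 CPM in injured ones, near the 1.14 to 3.12 CPM of T and NK cells in the same libraries.

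**Figure D5:**
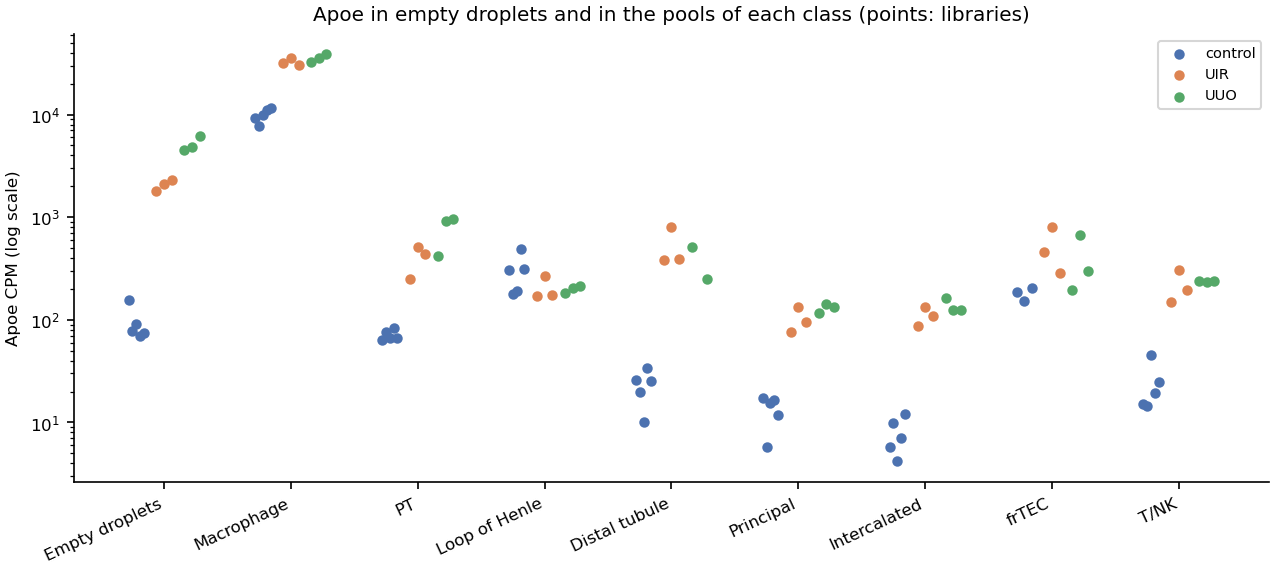
Apoe (CPM, log axis) in empty droplets and in the pools of macrophages, 6 tubular classes and T and NK cells, with 1 point per library and colours for the 3 groups. Injured principal and intercalated cells (75.8 to 164 CPM) lie below the T and NK cells of their groups (148 to 303 CPM), and PT and distal tubule of injured kidneys mostly lie above them.

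The effects in macrophages and in tubular cells were compared in 1 model for the 4 tubular classes with enough cells in every library and the 9 genes other than *Gpnmb*. Of these 36 differences 20 passed in UIR and 22 in UUO. The share of all genes that passed was 11% and 13.8% in PT, 13.3% and 14.6% in the loop of Henle, 10.5% and 16.4% in principal cells and 9.85% and 12.7% in intercalated cells. The *Ctsd* effect was smaller in all 4 tubular classes than in macrophages, with log2 differences of −2.60 to −3.27 in UIR and −2.56 to −3.51 in UUO. The *Lpl* effect was also lower in all 4 classes, the most in the loop of Henle (−5.31 and −5.25). Without the large macrophages 19 and 21 differences passed, and the *Ctsd* effect was again smaller in all 4 classes (−2.21 to −3.16 in UUO).

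Over 143 pools of a class in a library, the genes whose levels were most like those of each of the 10 were found by Pearson's r of log2(CPM + 1) among 12261 genes, as a description. They were *Pf4* (0.82) and *C1qa* (0.79) for *Apoe*, *Adgre1* (0.83) and *Tlr8* (0.83) for *Trem2*, *P2ry13* (0.76) and *Gpr84* (0.70) for *Gpnmb*, and *Mertk* (0.78) for *Lpl*. The closest genes were *Slc7a7* (0.75) for *Cd36*, *Gda* (0.72) for *Fabp5*, *Cd24a* (0.82) for *Cd9*, *Fam129a* (0.80) for *Lgals3*, *Pld3* (0.69) for *Ctsd* and *Fkbp9* (0.86) for *Ctsl*. Pools of a library share its depth and free RNA.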

How the data were processed

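Single cells of 11 mouse kidneys were sequenced with a droplet 3′ assay. The deposited files hold raw UMI counts per gene and barcode, which the authors made with Cell Ranger 3.1.0 on mm10 (per the file headers and the submitters' processing notes, while the study's methods name a later version), with empty droplets included. No normalization had been applied.

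From these counts, barcodes were kept as cells when they held over 0.1 times the UMI total at percentile 99 among the 3000 largest barcodes, or a test against empty droplets (ranks 45000 to 90000, 10000 simulations, false discovery rate 0.01) with at least 500 UMIs. Limits of 30% for mitochondrial UMIs, 5% for hemoglobin UMIs and a minimum of 200 genes were then applied, and the 7.5% with the highest simulated doublet scores were removed. Cells were clustered by Leiden at resolution 1 (2000 variable genes, 40 components, 20 neighbors; scanpy 1.11.5, leidenalg 0.10.2) and named from marker lists. The 10 genes, the markers and the list genes were held out of the variable genes.

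UMIs were summed per class and library for pools of at least 20 cells and tested across libraries with edgeR 4.0.16 (quasi-likelihood, TMM, one fit per class over all groups, Benjamini-Hochberg over all genes, threshold 0.05). Values after ± beside log2 values are SEs. Class comparisons kept the library as a block. Shares of cells were compared by an exact two-sided permutation test. A fold against a group at 0 used a floor of 3 UMIs over the pooled group. This floor covers counting error of independent UMIs only, not the gathering of UMIs in few cells. On simulated counts for macrophages, UUO against control (9409 genes), 44 of 100 genes changed by a log2 of 1 and 96 of 100 changed by 2 were recovered, with 4 false calls.

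All 10 genes were named, and from each list up to 4 genes per contrast with the largest called change, at least 20 CPM and no overlap of the libraries compared. For likeness 3 genes were ranked per gene, among those of at least 20 CPM in at least 3 pools. The genes and lists were chosen with earlier results of these data known. Alternatives were DESeq2 1.42.0, other size factors, no filter, a mitochondrial limit of 15%, at least 1000 UMIs, doublets kept, other cell naming, free RNA subtracted, thinning to 2000 UMIs, a replicate block and leaving out each library. Restricting to 1 cluster and leaving out macrophages over 20000 UMIs were chosen after seeing the data. A marker and a list gene are not reported by name here.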

Additional observations from a re-analysis of the deposited data

Results flagged for a closer look

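Of 43 sets of 5 control libraries tested for a library far from the others, 4 held one, where chance gives about 1 in 20. In the loop of Henle, library AN2 stood at 2.38 CPM for *Fabp5* (nearest control 10.96) and at 575 CPM for *Lgals3* (nearest 304). In principal cells *Cd9* stood at 658 CPM in library Ctrl (nearest 538), and in intercalated cells *Ctsl* stood at 1101 CPM in N2 (nearest 467).

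Of the tested differences between the effect in tubular cells and in macrophages, 20 passed in UIR and 22 in UUO. In 7 of them the gene passed in both kinds of cell and in opposite directions. For *Lpl* in UIR the tubular effect minus that of macrophages was −1.89 in PT, −5.31 in the loop of Henle and −2.76 in principal cells (log2). For *Apoe* in the loop of Henle it was −2.76 in UIR and −2.86 in UUO, and for *Fabp5* in the loop of Henle −6.66 and −7.26. The loop of Henle values set different clusters of control and injured cells side by side, and 170 of 420 principal cells of UIR lay in a cluster that held 3 control cells. The *Fabp5* level of the loop of Henle in UUO turned with the limit on mitochondrial UMIs and with doublets kept.

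Within macrophages the UUO effect differed from the UIR effect for *Lpl* (−0.82) and *Gpnmb* (1.41). The *Gpnmb* difference was 0.86 and no longer passed without macrophages over 20000 UMIs.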

How the results depend on the processing

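Of the 10 genes in macrophages, the counts called were 9, 9 and 2 for UIR against control, UUO against control and UUO against UIR. With cluster M2 alone they were 5, 5 and 0 of 8 tested (5.39, 7.4 and 0.536% of all genes passed; 2 of the 8 had an unadjusted p under 0.05 between UUO and UIR), with M0 alone 2, 2 and 0 of 4 (3.27, 5.81 and 0.726%), and without macrophages over 20000 UMIs 9, 6 and 1. The UUO against UIR count was 1 by DESeq2, 1 at a mitochondrial limit of 15% and 0 with the empty-droplet profile subtracted. Leaving out 1 library at a time gave 7 to 9, 7 to 9 and 0 to 2. In tubular cells, leaving out 1 library gave 25 to 30, 28 to 33 and 2 to 5 calls. The UUO against UIR count there was 8 with no filter on low counts and 1 with the empty-droplet profile subtracted. Shares that did not overlap numbered 7 to 8, 7 to 7 and 2 to 5 on leaving out a library, and 1 between UUO and UIR without thinning. The cause was not tested.

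Of single values, 680 of 726 in macrophages and 1151 of 1246 in tubular cells kept direction and side of the threshold. Those that turned were *Lgals3* in macrophages, UUO (−0.35, M2 alone), *Apoe* in the loop of Henle (1.26 in UIR with cluster T8 alone; 0.37 in UUO with doublets kept), *Fabp5* there in UUO (0.0692 at a mitochondrial limit of 15%; 1.35 with doublets kept) and *Apoe* in the distal tubule, UUO (−1.99, empty-droplet profile subtracted). Deviations of the UIR and UUO macrophage pools numbered 1 and 2 correlated at −0.03 and −0.11, and those of the loop of Henle at 0.10 and 0.09. The numbers were therefore not taken to pair the libraries. The unnumbered UIR and UUO pools correlated at 0.20 in macrophages and 0.45 in the loop of Henle, and pairs with Ctrl were not compared. With the replicate block 9, 9 and 3 genes passed in macrophages, *Fabp5* being the gene added between UUO and UIR (0.68, adjusted p = 0.0382, edgeR; −0.45 without the block and the macrophages over 20000 UMIs), and 27, 30 and 5 calls in tubular cells. Control pools of 66 to 99 macrophages limit the precision of low genes.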

Other observations

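The neutrophils fell into clusters with different levels of these genes. Cluster M18 (86 cells, of which 80 were UUO) held *Gpnmb* at 1163 CPM, *Cd9* at 3177, *Lgals3* at 2822, *Ctsd* at 3840 and *Fabp5* at 693. Cluster M11 (285 cells) held *Gpnmb* at 0, *Cd9* at 1283, *Lgals3* at 488, *Ctsd* at 1232 and *Fabp5* at 56.5 CPM. In M18 *Gpnmb* stood at 1112, 1574 and 1010 CPM in UUO, UUO1 and UUO2, from 20, 26 and 34 cells.

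The markers left 1 further cluster without a name (T21, 134 cells, of which 125 came from UUO2). It held *Ctsd* at 2623 CPM, *Lgals3* at 857, *Lpl* at 714, *Trem2* at 139 and *Gpnmb* at 97.7. Its macrophage and PT scores were close (0.211 and 0.182), so its cells lie outside the macrophage pools. What they would change in the macrophage values, *Lpl* among them, was not tested.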
